A study of Homo sapiens with 8 samples.

Results

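Transcripts of 9 genes, 8 of the NEDD8 conjugation pathway and the cullin exchange factor CAND1, were examined by RNA-seq in leukemia cells that had become resistant to long-term auxin treatment against CTCF. The genes were taken by symbol from the deposited expression table, which lists 60754 genes and spike-in sequences, and all 9 were among the 15614 genes that reached 1 TPM (a transcript's share of all transcripts in a library, corrected for its length) in at least 1 of the 8 libraries. NEDD8 is the modifier itself, NAE1 and UBA3 form its activating enzyme, UBE2M and UBE2F are its conjugating enzymes, DCUN1D1 and DCUN1D5 help to transfer it to cullins, CAND1 binds cullins that do not carry it, and SENP8 is a protease that matures its precursor.

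The cells were SEM, an established human B-cell acute lymphoblastic leukemia (B-ALL) line with a KMT2A rearrangement. In the CTCF AID2 cells used, miniAID-mClover3 was fused to the end of both CTCF alleles and OsTIR1(F74G) was expressed with a Zeocin resistance gene from a lentiviral MND promoter. Parental cells were untreated cells of the clones C17.2 and C3.2. Resistant cells of the same clone had been kept for 36 days in 1 μM of the auxin analog 5-Ph-IAA with 100 μg/ml Zeocin and then held for 48 h without either drug, and each of the 4 groups had 2 libraries. As the study describes them, C17.2 resistant cells had acquired a stop codon in CTCF that gave a shorter protein without the degron tag, beside tagged CTCF that auxin still degraded, and C3.2 resistant cells a missense change within the miniAID tag. Each clone is a single edited line, so a difference between the clones is a difference between 1 line and 1 other line. Time in culture, exposure to both drugs and the washout went with the resistant state, so they cannot be told apart from resistance here.

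Neddylation attaches NEDD8, a small protein related to ubiquitin, to the cullin scaffold of cullin-RING ubiquitin ligases and switches the ligase on. The COP9 signalosome takes NEDD8 off again, after which CAND1 can bind the bare cullin and exchange its substrate receptor. The degron system draws on the same machinery, because OsTIR1(F74G) is an F-box protein that joins SKP1 and CUL1 in an SCF ligase. The comparison of resistant with parental cells asks whether transcripts of this machinery differed in cells where CTCF had reappeared during long auxin treatment. In C17.2 a shorter form of it had appeared.

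The identity of the libraries was checked first. PAX5 (116 to 193 TPM), CD79A (92.2 to 175 TPM), EBF1 (94.4 to 121 TPM), VPREB1 (77.8 to 122 TPM) and MEIS1 (61.8 to 87.3 TPM) were high in all 8 libraries. Of other B-lineage markers, CD79B was at 4.33 to 15.3 TPM, and the B-precursor genes DNTT and RAG1 did not exceed 0.25 and 0.31 TPM. Of the 4 T cell markers, CD3D and CD8A were at 0 TPM in every library and CD3E was the highest, at up to 0.25 TPM, and no erythroid marker exceeded 0.32 TPM. The myeloid markers reached 2.34 TPM for CSF1R (from 0.92) and 2.18 TPM for LYZ (from 0.47), against 0.97 TPM for MPO and 0.20 TPM for CD14. Replicates correlated at a Pearson r of 0.968 to 0.979 across genes. The replicates of C3.2 resistant cells were the least alike, with 102 of 8564 protein-coding genes at a mean of 5 TPM or more differing by over 0.5 on the log2 scale, against 9 to 34 in the other groups. TPM keeps no read depth, so the depth behind each value is unknown, and no source says that the 2 libraries of a group came from separate cultures, so p-values measure only the spread between these libraries. In bulk RNA, fewer cells of a type and less RNA per cell cannot be told apart.

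In C17.2, 4 of the 9 genes rose in resistant cells and none fell. NEDD8 rose 1.52-fold, DCUN1D1 1.32-fold, CAND1 1.26-fold and NAE1 1.14-fold, each an increase in scaled TPM (limma, adjusted p of 0.0309, 0.0192, 0.00400 and 0.0317). Of all tested genes, 27.3% were called in C17.2, 13.4% as higher and 13.9% as lower. The same 4 genes were called under all 3 other scalings of the libraries, although the share of all calls that were higher moved from 49.1% to 75.1% with TPM as deposited, where the median log2 change of all genes was 0.13, and to 64.6% with TPM rescaled over protein-coding genes. The median log2 change over the 9 genes was 0.02, beside 0.00 over all tested genes, and the other 5 genes had log2 changes between -0.07 and 0.02. In C3.2, UBE2F alone rose, by 1.18-fold (adjusted p = 0.0444), where 11.4% of all genes were called, 4.46% as higher and 6.9% as lower. UBE2F was again the gene called under the 3 other scalings, which moved the share of higher calls over all genes from 39.3% to between 50.8% and 69.7%. The change itself differed between the clones for CAND1 (adjusted p = 0.00787), the only one of the 9 genes called in a test that called 9.9% of all genes, 4.91% with the larger change in C17.2 and 4.99% with the smaller. Both resistant libraries were above both parental libraries in scaled TPM for those 4 genes in C17.2 and for UBE2F, DCUN1D1 and SENP8 in C3.2, beside 33.3% and 27.8% of all genes. Both were below for no gene in C17.2 and for CAND1 and DCUN1D5 in C3.2, beside 32.7% and 28.1% of all genes. On TPM as deposited, UBE2M and UBE2F also lay above in C17.2 and NAE1 and UBA3 in C3.2, beside 49.2% and 36.6% of all genes, and the genes below were the same, beside 18.7% and 19.0%.

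Stretches of sequence just upstream of a RefSeq start of the 4 genes that rose in C17.2 are shown because these are the genes that passed the test there. They were taken from RefSeq (GRCh38.p14), on the strand of the gene, from the 250 bases before the RefSeq start, and limited to bases that no annotated exon covers. Those of NAE1 and DCUN1D1 lie inside the gene spans given below, because Gencode extends both genes upstream of that start. Capitals mark matches, on either strand, to the motif letters CCGGAAG (bound by ETS factors), GGGCGG (SP/KLF factors) and CCAAT (NFY). The stretches lie at chr14:24232368-24232421 for NEDD8, chr16:66830978-66831226 for NAE1, chr3:182980539-182980788 for DCUN1D1 and chr12:67269108-67269357 for CAND1.
NEDD8: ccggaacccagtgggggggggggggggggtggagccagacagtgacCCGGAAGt
NAE1: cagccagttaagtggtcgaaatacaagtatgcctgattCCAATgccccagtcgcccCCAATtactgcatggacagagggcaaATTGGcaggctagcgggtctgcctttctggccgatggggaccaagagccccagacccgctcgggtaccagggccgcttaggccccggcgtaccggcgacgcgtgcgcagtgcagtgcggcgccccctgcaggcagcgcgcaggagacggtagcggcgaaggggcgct
DCUN1D1: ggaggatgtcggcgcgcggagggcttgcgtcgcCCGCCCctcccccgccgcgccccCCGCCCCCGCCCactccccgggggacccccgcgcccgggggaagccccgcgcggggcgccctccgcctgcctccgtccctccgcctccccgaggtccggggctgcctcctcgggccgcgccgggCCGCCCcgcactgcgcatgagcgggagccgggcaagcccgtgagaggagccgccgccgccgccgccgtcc
CAND1: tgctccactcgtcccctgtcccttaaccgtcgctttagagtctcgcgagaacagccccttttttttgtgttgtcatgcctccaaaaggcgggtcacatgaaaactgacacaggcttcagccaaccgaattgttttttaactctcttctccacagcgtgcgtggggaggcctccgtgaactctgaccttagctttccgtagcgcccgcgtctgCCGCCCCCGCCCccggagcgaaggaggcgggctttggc
The NEDD8 stretch is the whole 54-base gap to GMPR2, a gene for a guanosine monophosphate reductase that starts in the opposite direction. No motif was common to the 4 genes. Motif letters of NRF1, the E-box, ATF/CRE sites, ATF4, YY1 and the CTCF core were also searched and occurred upstream of none of these 4 genes. Of the 9 genes, SENP8 alone held any of them, with 1 match each to the NRF1 and E-box letters. The CTCF core letters occur in 2.02% of all promoters. The ETS letters lay 8 bases before the NEDD8 start and, of the other 8 genes, were found within 250 bases of the DCUN1D5 start only, and 8.52% of 35116 promoters of that length hold them. CCAAT occurred 3 times upstream of NAE1, and in 3 of the 9 genes (NEDD8, NAE1 and UBE2F) beside 32% of all promoters. GGGCGG was found in 7 of the 9 genes, among them CAND1 with 2 adjoining matches and DCUN1D1 with 4, and in 42.6% of all promoters. It holds only G and C, and the windows of the 9 genes were rich in both. Their share of G and C was 58.0% (UBA3 and CAND1) to 84.8% (DCUN1D1), beside a median of 58.0% over all promoters. These matches are descriptions of the letters in these windows, not of binding.

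The modifier NEDD8 was the most abundant of the 9 transcripts in every library, at the 92.2nd to 95.8th percentile of tested protein-coding genes. It lies on the reverse strand at chr14:24216857-24232367 (GRCh38), with 4 exons and 81 codons. In C17.2, NEDD8 was at 70.6 and 72.2 TPM in the parental libraries and at 123 and 120 TPM in the resistant libraries, with no overlap. In C3.2, the parental libraries had 82.8 and 87.7 TPM and the resistant libraries 90.8 and 60.1 TPM, so resistant replicate 1 lay above and replicate 2 below both parental libraries. The log2 change in scaled TPM was 0.60 ± 0.15 (SE, n = 2 against 2; 95% interval 0.23 to 0.97) in C17.2 and -0.27 (interval -0.64 to 0.10, adjusted p = 0.312) in C3.2. The difference of 0.87 between the clones had an interval of 0.34 to 1.39 and an adjusted p of 0.0576 in limma, just short of the threshold.

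The NEDD8 result depended on single libraries and on the filter. The rise in C17.2 kept its size without any 1 of the 8 libraries (log2 change of 0.54 to 0.66), but its adjusted p rose to between 0.112 and 0.168 without a C17.2 library and to 0.0734 or 0.0736 without a C3.2 parental library. With no filter on low values it was likewise 0.0734. In C3.2, the log2 change was -0.53 (adjusted p = 0.0139) without resistant replicate 1 and -0.01 (adjusted p = 0.955) without resistant replicate 2. With one or the other of these libraries left out, the difference between the clones passed the test, at 1.13 (adjusted p = 0.0044) and 0.61 (adjusted p = 0.0221). The gap between those replicates was 0.52 for NEDD8 on the log2 scale, the widest of the 9 genes in any group. GMPR2, which shares the upstream gap, had 22.4 to 31.9 TPM and log2 changes of -0.22 (adjusted p = 0.0624) in C17.2 and -0.12 (adjusted p = 0.332) in C3.2. The readthrough entry NEDD8-MDP1 was at 0 to 0.15 TPM.

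**Figure D1:**
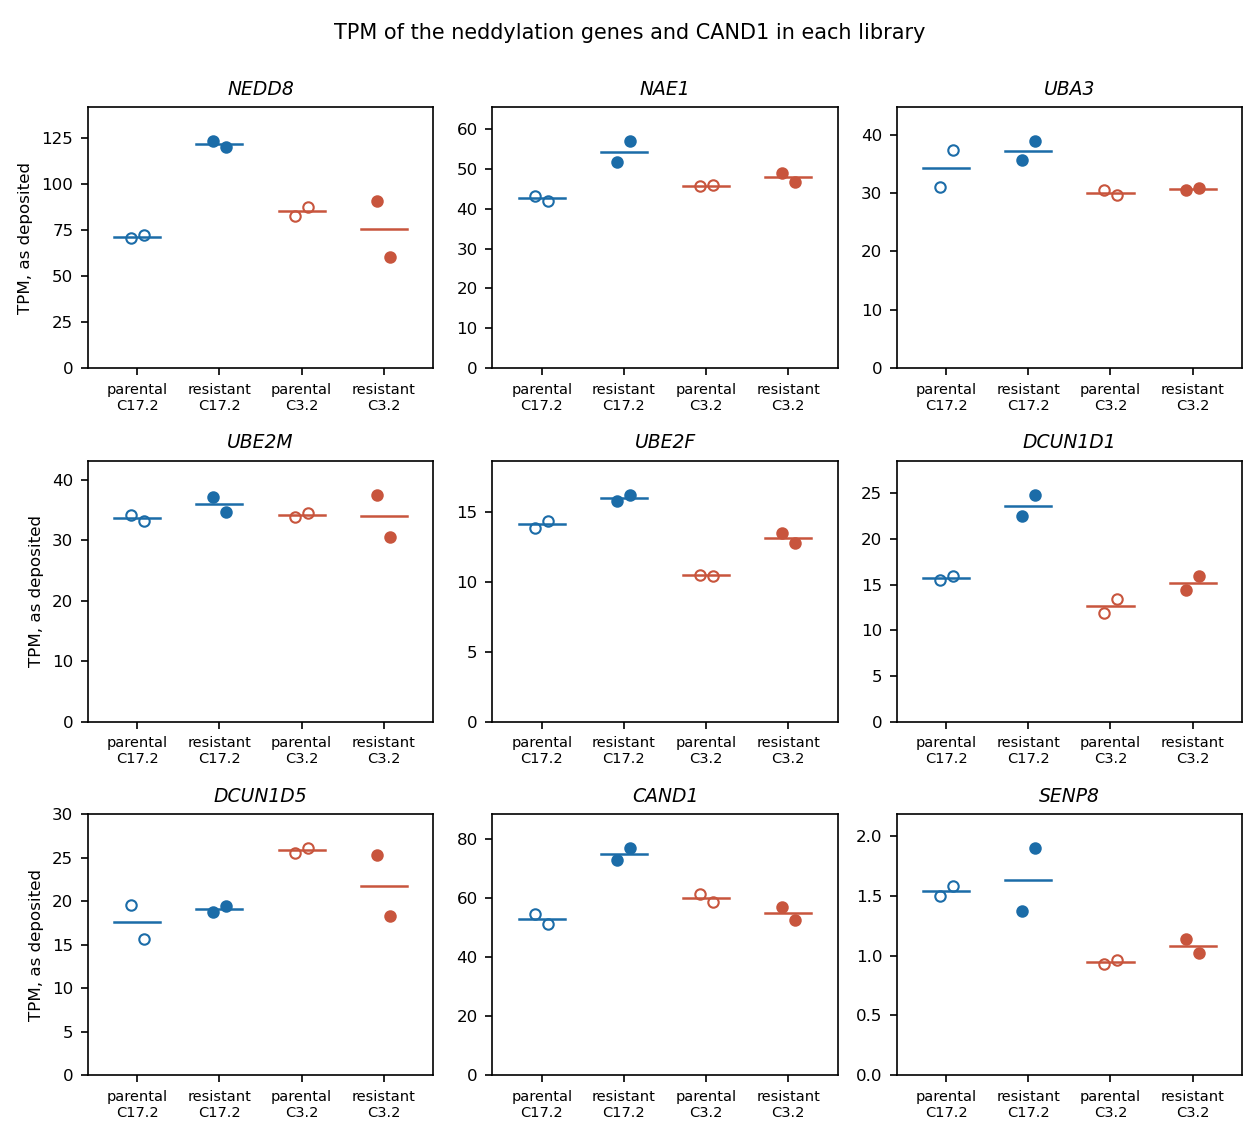
Deposited TPM (vertical axes, each from 0) of the 9 genes in the 4 groups; each point is 1 library, open for parental and filled for resistant, blue for C17.2 and red for C3.2, and the bar is the mean of 2 libraries. Both resistant libraries of C17.2 stand above both parental libraries for NEDD8, NAE1, DCUN1D1 and CAND1 and, by less, UBE2M and UBE2F, as they did for 49.2% of all tested genes on deposited TPM, and the C3.2 resistant libraries are split for NEDD8 (90.8 and 60.1 TPM) and DCUN1D5 (25.3 and 18.3 TPM).

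The activating enzyme is a heterodimer of NAE1 and UBA3. NAE1, the regulatory subunit (chr16:66802875-66873256, reverse strand, 20 exons, 534 codons), had 43.2 and 42.1 TPM in C17.2 parental cells and 51.8 and 56.9 TPM in resistant cells, which did not overlap. In C3.2 it had 45.7 and 45.8 TPM in parental cells and 49.1 and 46.7 TPM in resistant cells, and these overlapped once the libraries were scaled. The log2 change of NAE1 was 0.18 ± 0.047 (SE; interval 0.07 to 0.30) in C17.2 and 0.00 (interval -0.12 to 0.11, adjusted p = 0.992) in C3.2, and the changes did not differ by the test (0.19, adjusted p = 0.141). The call in C17.2 was lost without 5 of the 8 libraries, namely C17.2 parental replicate 1 (adjusted p = 0.127) or 2 (0.0703), resistant replicate 2 (0.106) and C3.2 parental replicate 1 (0.0524) or 2 (0.0532). It was also lost when the clone was fitted alone (0.0761) or with no intensity trend (0.0641), and on TPM as deposited the log2 change was 0.34. The NAE1 span given here lies 0.689 Mb from that of CTCF on the same chromosome.

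UBA3, the catalytic subunit (chr3:69054730-69080408, reverse strand, 18 exons, 463 codons), showed no change past the test in either clone. Its TPM was 31.1 and 37.4 in C17.2 parental cells, 35.6 and 38.8 in C17.2 resistant cells, 30.5 and 29.6 in C3.2 parental cells, and 30.5 and 30.9 in C3.2 resistant cells. The parental libraries of C17.2 were farther apart from each other than the parental and resistant means of that clone. The log2 change was -0.04 in both clones, with intervals of -0.30 to 0.23 that would allow a change of either sign. NAE1 exceeded UBA3 in every library. The NAE1/UBA3 ratio of TPM was 1.39 and 1.12 in C17.2 parental cells and 1.45 and 1.47 in resistant cells, a log2 difference of 0.22 against a combined SD of 0.22. In C3.2 the ratios overlapped, at 1.5 and 1.55 in parental and 1.61 and 1.51 in resistant cells.

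Of the conjugating enzymes, UBE2M acts with RBX1 on most cullins and UBE2F with RNF7 on CUL5. UBE2M (chr19:58555712-58558954, reverse strand, 6 exons, 183 codons) varied least of the 9 genes, with its highest library 1.23 times its lowest. It had 34.2 and 33.1 TPM in C17.2 parental cells, 37.2 and 34.7 TPM in resistant cells, 33.9 and 34.4 TPM in C3.2 parental cells, and 37.5 and 30.5 TPM in resistant cells. The log2 changes were -0.07 (interval -0.26 to 0.13) in C17.2 and -0.08 (interval -0.27 to 0.12) in C3.2, and neither passed the test (adjusted p of 0.601 and 0.593). Its processed pseudogene UBE2MP1, whose transcript is 97.1% identical over 550 aligned bases, was listed at 0.61 to 2.1 TPM, so a small part of either value may belong to the other.

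UBE2F (chr2:237966827-238042782, forward strand, 10 exons, 185 codons) was the gene that rose in C3.2. Its parental libraries had 10.5 and 10.4 TPM and its resistant libraries 13.6 and 12.8 TPM, with no overlap, and the log2 change was 0.24 ± 0.057 (SE; interval 0.11 to 0.38; adjusted p = 0.0444). In C17.2 it had 13.9 and 14.4 TPM in parental and 15.8 and 16.3 TPM in resistant cells. These values did not overlap as deposited, but the libraries were scaled by factors from 0.893 to 1.16, after which the log2 change was 0.02 (interval -0.12 to 0.16, adjusted p = 0.855). The changes in the clones did not differ by the test (-0.23, adjusted p = 0.138).

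The UBE2F call was close to the threshold. It was lost without each of the 4 C3.2 libraries (adjusted p of 0.0973 to 0.179) and without C17.2 resistant replicate 1 or 2 (0.0796 and 0.08). It was also lost with no filter on low values (0.0738), with no intensity trend (0.0651) and when the clone was fitted alone (0.116). In that last fit only 0.493% of all genes were called. The pseudogene UBE2FP1, 87.4% identical to UBE2F over 453 aligned bases, was listed at 5.32 to 8.27 TPM and had a log2 change of -0.09 (adjusted p = 0.778) in C3.2. With UBE2F summed with its pseudogene and readthrough entries, an alternative chosen after seeing the data, the log2 change in C3.2 was 0.13 (adjusted p = 0.159). The UBE2M/UBE2F ratio in C3.2 was 3.21 and 3.30 in parental cells and 2.77 and 2.38 in resistant cells, lower in both resistant libraries by a log2 difference of -0.34 (combined SD 0.157). In C17.2 the ratio was 2.45 and 2.30 in parental and 2.35 and 2.13 in resistant cells, with overlap.

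DCUN1D1 and DCUN1D5 encode DCN1-like proteins, which bind the conjugating enzyme and the cullin together. DCUN1D1 (chr3:182938074-182985953, reverse strand, 7 exons, 259 codons) had 15.5 and 15.9 TPM in C17.2 parental cells and 22.5 and 24.8 TPM in resistant cells. In C3.2 it had 11.9 and 13.4 TPM in parental and 14.4 and 16 TPM in resistant cells, so that the resistant libraries were above the parental libraries in both clones. The log2 change was 0.40 ± 0.090 (SE; interval 0.19 to 0.62) in C17.2 and 0.18 (interval -0.03 to 0.40, adjusted p = 0.244) in C3.2, and these changes did not differ by the test (0.22, adjusted p = 0.328). The call in C17.2 was lost without each of its 4 libraries, with adjusted p of 0.119 and 0.0619 without parental replicates 1 and 2 and of 0.0618 and 0.113 without resistant replicates 1 and 2.

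DCUN1D5 (chr11:103050686-103092194, reverse strand, 8 exons, 237 codons) did not pass the test in either clone. It had 19.5 and 15.7 TPM in C17.2 parental and 18.7 and 19.5 TPM in resistant cells, which overlapped, and a log2 change of -0.03 (interval -0.34 to 0.28). In C3.2 it had 25.6 and 26.1 TPM in parental and 25.3 and 18.3 TPM in resistant cells. There the log2 change was -0.32 (interval -0.63 to -0.01, adjusted p = 0.172). Resistant replicate 2, which also had the low NEDD8 value, lay below both parental libraries, and the log2 change of DCUN1D5 was -0.13 (adjusted p = 0.498) without it and -0.51 (adjusted p = 0.0345) without resistant replicate 1.

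The order of these related genes differed between groups. The DCUN1D1/DCUN1D5 ratio was below 1 in all 4 C3.2 libraries, at 0.465 and 0.515 in parental and 0.569 and 0.875 in resistant cells. In C17.2 it was 0.796 and 1.02 in parental cells and 1.2 and 1.27 in resistant cells. The resistant libraries had the higher ratios in both clones, by 0.46 (combined SD 0.258) and 0.53 (combined SD 0.451) on the log2 scale. The ratios are given as a description, with no test. With 2 libraries against 2, an exact permutation test could not give a p under 0.333.

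**Figure D2:**
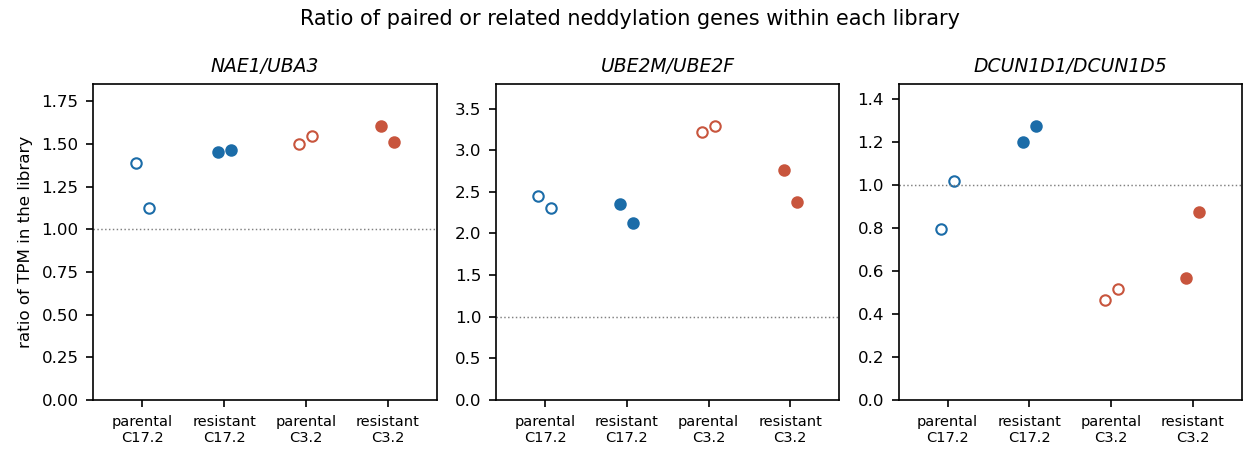
Ratio of TPM within each library (vertical axes, each from 0; the dotted line is a ratio of 1) for the subunits of the activating enzyme, the conjugating enzymes and the DCN1-like genes; each point is 1 library, open for parental and filled for resistant, blue for C17.2 and red for C3.2. UBE2M/UBE2F is lower in both C3.2 resistant libraries (2.77 and 2.38) than in the parental libraries (3.21 and 3.30), and DCUN1D1/DCUN1D5 is higher in the resistant libraries of both clones.

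CAND1 (chr12:67269358-67319953, forward strand, 15 exons, 1230 codons) was second in level in every library, at the 89.5th to 92.5th percentile. In C17.2 it had 54.7 and 51.0 TPM in parental cells and 73.0 and 76.8 TPM in resistant cells. In C3.2 it had 61.4 and 58.6 TPM in parental cells and 56.9 and 52.6 TPM in resistant cells. The groups did not overlap in either clone, and the resistant libraries were the higher in C17.2 and the lower in C3.2. Scaled TPM moved from 51.9 ± 0.30 to 65.8 ± 0.99 (SD, n = 2) in C17.2 and from 66.1 ± 3.6 to 57.5 ± 1.1 in C3.2, so the resistant cells of C17.2 were close to the parental cells of C3.2.

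The log2 change of CAND1 was 0.34 ± 0.049 (SE; interval 0.22 to 0.45) in C17.2 and -0.20 ± 0.049 (interval -0.31 to -0.08) in C3.2. The change in C3.2 missed the threshold by limma, with an adjusted p of 0.0523. It was smaller under the 3 other scalings, at -0.13 (adjusted p = 0.276) on TPM as deposited, -0.095 (0.238) with the protein-coding scaling and -0.13 (0.163) with quantile normalization, and it ranged from -0.25 to -0.14 without 1 library (adjusted p of 0.0643 to 0.178). The difference between the clones was 0.53 ± 0.069 (SE; interval 0.37 to 0.70). Both the rise in C17.2 (log2 change of 0.32 to 0.50) and the difference between the clones (0.47 to 0.63) kept their calls under every alternative scaling, filter and variance model and without each library in turn, with adjusted p of at most 0.0315 and 0.0437.

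SENP8 (chr15:72114258-72143692, forward strand, 2 exons, 212 codons) was the rarest of the 9 transcripts, between the 4.88th and 8.82nd percentile. It had 1.5 and 1.58 TPM in C17.2 parental cells, 1.37 and 1.9 TPM in resistant cells, 0.93 and 0.96 TPM in C3.2 parental cells, and 1.14 and 1.02 TPM in resistant cells. The resistant values spanned the parental values in C17.2 and lay above them in C3.2. The log2 changes of -0.05 (interval -0.35 to 0.25) and 0.06 (interval -0.23 to 0.36) did not pass the test. SENP8 overlaps MYO9A on the opposite strand, which had 13.2 to 21.5 TPM and rose in C17.2 (log2 change 0.28, adjusted p = 0.0156). No source states whether strand was used in counting, and without strand, reads from the shared stretch cannot be told apart.

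**Figure D3:**
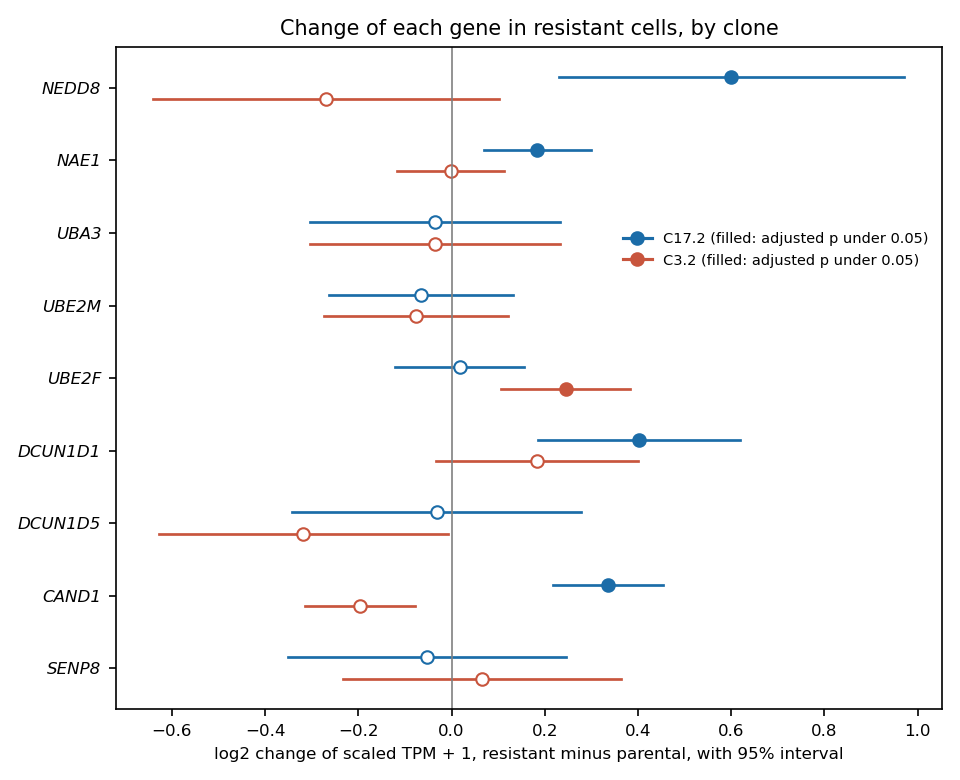
Log2 change of scaled TPM + 1 (horizontal axis, resistant minus parental) of each gene in C17.2 (blue) and C3.2 (red); points are fitted changes, filled where the adjusted p is under 0.05, and lines are 95% intervals. The intervals of CAND1 lie on opposite sides of 0 in the clones (0.22 to 0.45 and -0.31 to -0.08), and those of UBA3 and UBE2M cross 0 in both.

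The order of the levels was otherwise stable. NEDD8 was above CAND1 and CAND1 above NAE1 in all 8 libraries, followed by UBA3 and UBE2M, whose values overlapped in every group except C3.2 parental cells. DCUN1D1 and DCUN1D5 came next, with overlap in C17.2 parental cells, then UBE2F and last SENP8. The highest library exceeded the lowest by 2.09 times for DCUN1D1, 2.05 times for NEDD8 and 2.04 times for SENP8, and by 1.23 to 1.67 times for the other 6 genes.

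In scaled TPM, the parental libraries of the clones did not overlap for 8 of the 9 genes. Scaled TPM in C3.2 parental cells was above that in C17.2 parental cells, with no overlap, for DCUN1D5 (log2 difference 0.73), NEDD8 (0.42), CAND1 (0.35), NAE1 (0.27) and UBE2M (0.19). It was lower for SENP8 (-0.54), UBE2F (-0.27) and DCUN1D1 (-0.15), and it overlapped for UBA3. Of all tested genes, 32.9% were higher and 33.2% lower in C3.2 parental cells without overlap in scaled TPM, and these differences were not tested. On TPM as deposited, UBE2M overlapped, and UBA3 was lower in C3.2 parental cells without overlap. The number at the start of the library titles also differed between the clones, so whatever it marks cannot be told apart from the clone in these levels.

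Other genes of the same cycle were examined by list. Of 10 cullin and RING genes, 3 rose in C17.2 and none fell, and these 3 were called under every scaling. Shares for this and the lists that follow are to be read against the 13.4% of all genes called higher and 13.9% called lower in C17.2, and the 4.46% and 6.9% in C3.2. They were CUL1, the scaffold of SCF ligases (log2 change 0.22, adjusted p = 0.0122), CUL2 (0.25, adjusted p = 0.0168) and RBX1, the RING subunit that works with UBE2M (0.26, adjusted p = 0.00880). RNF7, the RING partner of UBE2F, had a log2 change of -0.24 (adjusted p = 0.114). None of the 10 was called in C3.2, where CUL1 and RBX1 had log2 changes of 0.04 and 0.03. The change of none of the 10 differed between the clones by the test. The study itself describes RNA of ligase members, with SKP1, CUL1 and RBX1 as examples, as staying at similar levels in C3.2 and C17.2. Its text gives no threshold for this, and its own test ran on counts, not on TPM.

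Of the 10 genes of the COP9 signalosome, which removes NEDD8 from cullins, 3 rose in C17.2 and none fell, again under every scaling. COPS9 had the widest change (0.54, adjusted p = 0.00952), followed by COPS6 (0.34, adjusted p = 0.00901) and COPS8 (0.22, adjusted p = 0.0253). In C3.2 only COPS7A passed, with a rise of 0.49 (adjusted p = 0.0208). With a clone fitted alone, only COPS6 was called in C17.2, beside 22.8% of all genes, and none in C3.2, beside 0.493%. The median log2 change was 0.03 in C17.2 and -0.02 in C3.2. Of 9 other regulators of neddylation, 8 were tested (CAND2, a relative of CAND1, was below the filter) and COMMD1 rose in C17.2 (0.32, adjusted p = 0.0245), a call lost with no filter on low values and with the clone fitted alone. The other DCN1-like gene named by the rule, DCUN1D4, had log2 changes of -0.11 and -0.25 (adjusted p of 0.290 and 0.0768).

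Conjugation cascades of the related modifiers gave a background from similar enzymes. Of 6 genes for ubiquitin and its activating enzymes, UBB (0.30, adjusted p = 0.0245) and UBA1 (0.24, adjusted p = 0.0181) rose in C17.2. RPS27A, which encodes ubiquitin fused to a ribosomal protein, fell in both clones, with log2 changes of -0.28 (adjusted p = 0.0338) and -0.48 (adjusted p = 0.0128), but passed in neither clone on TPM as deposited, nor in C17.2 with the protein-coding scaling, nor in C3.2 with quantile normalization. Of 11 SUMO genes, 2 rose and 1 fell in C17.2, and 1 rose and 1 fell in C3.2. The SUMO protease SENP6 fell in C17.2 (-0.29, adjusted p = 0.00478) and rose in C3.2 (0.26, adjusted p = 0.0171). Of 6 UFM1 genes, UFC1 rose in C17.2 (0.22, adjusted p = 0.0453). Of 5 ISG15 genes, 3 fell in C17.2, led by the conjugating enzyme UBE2L6 (-0.58, adjusted p = 0.000917), and 2 fell and 1 rose in C3.2. Of these 3 falls in C17.2, that of UBE2L6 alone was called under every scaling, and on TPM as deposited ISG15 and USP18 were called higher there. In C3.2 the fall of UBE2L6 was not called on TPM as deposited or with the protein-coding scaling, and UBA7 was called higher with the latter. In C17.2, 4 SUMO genes were called higher and none lower on TPM as deposited, where SENP6 was not called, and 4 were higher and 1 lower with the protein-coding scaling. Of 5 tested B-lineage markers, 2 fell in C17.2, and 3 fell and 1 rose in C3.2. Under the 3 other scalings, the fall of CD79A in C3.2 was not called, and with quantile normalization VPREB1 was also called lower in C17.2. The widest fall in both clones was that of CD79B (-1.51, adjusted p = 7.26e-05, and -1.03, adjusted p = 0.00112). Of the myeloid markers, CSF1R fell in C17.2 (-0.64, adjusted p = 0.0421), a call lost with quantile normalization. LYZ had log2 changes of 0.64 and 0.85 (adjusted p of 0.0713 and 0.0550). It was called higher in C17.2 on TPM as deposited, and in both clones with the protein-coding scaling and with a pseudocount of 0.1. In C3.2 it was also called with the robust variance. The part of these markers in the results was not tested.

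**Figure D4:**
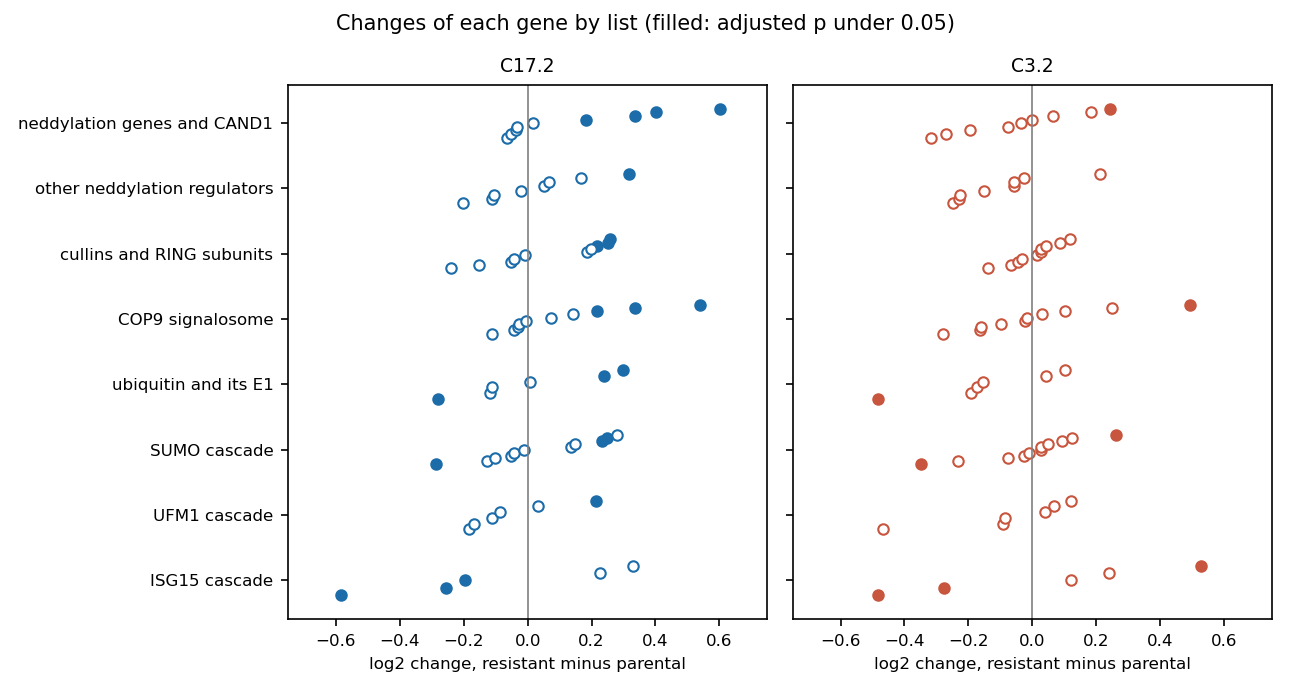
Log2 change of scaled TPM + 1 (horizontal axes, resistant minus parental) of each tested gene, by list (vertical axis), in C17.2 and C3.2; each point is 1 gene, filled where the adjusted p is under 0.05. The 9 neddylation members, CAND1 included, have 4 filled points in C17.2, all above 0, and 1 in C3.2, and the ISG15 list has 3 filled points below 0 in C17.2.

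Over the 8 libraries, the genes with the pattern most like that of CAND1 in log2 scaled TPM, among 9577 genes with a mean of at least 5 TPM, were CALM2 (Pearson r = 0.979), HMGCS1 (0.973) and TP53BP2 (0.970). HMGCS1, an enzyme of cholesterol synthesis, rose in C17.2 (log2 change 0.79, adjusted p = 0.000393) and fell in C3.2 (-0.64, adjusted p = 0.00287). Those most like NEDD8 were TASP1 (0.984), CBX1 (0.972) and TPR (0.967). The r of NEDD8 with CAND1 was 0.821, that of CAND1 with NAE1 was 0.708, and that of CAND1 with UBE2F was -0.45. These values describe 8 libraries that share clones and library scaling, and no p is given for them.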

How the data were processed

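RNA-seq libraries from SEM clones C17.2 and C3.2 were analyzed, 8 in all, with 2 for each of the parental and resistant states of a clone. Per the labels and the methods of the study, the authors removed rRNA from total RNA, trimmed reads (Trim Galore 0.6.3), mapped them to GRCh38 (STAR 2.7.9a), quantified genes of Gencode release 31 (RSEM 1.3.1) and deposited the TPM, which are not scaled between libraries. The labels give single-end and the methods paired-end reads, and strand use in counting was not given in the sources used here. TPM hold no depth, so no counting interval can be given.

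A gene was tested if any library reached a TPM of 1, which kept 15614 of 60754 entries. Each library was divided by a factor (0.893 to 1.16) averaged over log2 ratios to the mean of all libraries, once the outer 30% of ratios and the outer 5% of levels at either end were dropped. The log2 of scaled TPM plus a pseudocount of 1, which understates changes of low genes, was fitted with limma 3.58.1 in R 4.3.3 as 1 model of 4 groups with a trended eBayes prior. Tests were two-sided, adjusted by Benjamini-Hochberg over the tested genes, with a threshold of 0.05. The study itself ran TMM and limma-voom on counts, not used here. The script was tested on simulated data. Groups follow the clone label, and replicate numbers follow accession order. Positions and exons are from Gencode 44, to which 99.5% of tested genes matched by identifier, and transcript identity is from blastn 2.17.0. Ratios were taken on deposited TPM within a library and were not tested. All 9 genes are named, with their readthrough and pseudogene entries, up to 4 genes of each related list (those with the lowest adjusted p in either clone) and the 3 genes most like NEDD8 and CAND1. GMPR2 and MYO9A were named after their positions and values were seen. The genes, lists and tests were chosen with earlier results of these data known. Alternatives changed the scaling, pseudocount, filter, variance model and libraries fitted. Values of some listed genes are not reported here.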

Additional observations from a re-analysis of the deposited data

Results flagged for a closer look

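The change from parental to resistant cells differed between the clones by limma's test of the difference for 6 of the named genes, the cell type markers aside. Of those markers, CD79B (-0.48, adjusted p = 0.0387) and VPREB1 (0.34, adjusted p = 0.0493) also passed, and neither was called on TPM as deposited. That test called 9.9% of all tested genes. For CAND1 the log2 change in C17.2 minus that in C3.2 was 0.53 (adjusted p = 0.00787), from 0.34 and -0.20, with the resistant libraries apart from the parental libraries in both clones. For SENP6, a SUMO protease, it was -0.55 (adjusted p = 0.00495), from -0.29 and 0.26. For UBA7, the activating enzyme for ISG15, it was -0.32 (adjusted p = 0.0263), from -0.20 and 0.12, and this call was lost on TPM as deposited (adjusted p = 0.150), with no intensity trend (0.0584) and without any 1 library other than the C3.2 resistant libraries (0.0703 to 0.0893). SENP6 and UBA7 were named for a low adjusted p in either clone, so their difference is not free of that choice. The other 3 were chosen for a pattern like that of CAND1 or NEDD8, so their difference is a description. It was 1.43 for HMGCS1 (adjusted p = 0.000661), from 0.79 and -0.64, the largest of the 6, 0.42 for CALM2 (adjusted p = 0.00815), from 0.28 and -0.15, and 0.59 for CBX1 (adjusted p = 0.0350), from 0.43 and -0.16. The CBX1 call was lost with no filter on low values (adjusted p = 0.0749), with no intensity trend (0.0581) and without any 1 library other than the C3.2 resistant libraries (0.111 to 0.125). The clones were different lines with different CTCF or tag changes, and these cannot be told apart as the source of the differences.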

How the results depend on the processing

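Over 10 alternatives of scaling, pseudocount, filter, variance model, libraries fitted and summed entries (the last chosen after seeing the data), 3 to 4 of the 9 genes were called in C17.2, 0 to 2 in C3.2 and, over 9 of them, 1 to 2 for the difference between the clones. The share of all genes called ranged, in the same order, from 12.3% to 34.1%, 0.493% to 15.7% and 3.57% to 14.2%. In C3.2 it was 0.493% with the clone fitted alone and 15.5% with TPM of at least 1 in every library. In C3.2 the count was 0 with no filter on low values, with no intensity trend, with the clone fitted alone and with members summed with readthrough and pseudogene entries, and 2 with TPM of at least 1 in every library and with the robust variance, under which CAND1 was also called (adjusted p of 0.0391 and 0.0457, against 0.0511 to 0.276 under the other alternatives). For the difference between the clones it was 2 with TPM of at least 1 in every library, where NEDD8 was also called (0.87, adjusted p = 0.0281). SENP8 has no value under that filter.

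Leaving out each library in turn, the count ranged from 1 to 4 in C17.2, from 0 to 2 in C3.2 and from 1 to 2 for the difference, while the share of all genes called ranged from 15.2% to 29.1%, 2.09% to 11.5% and 3.46% to 11.2%. The lone library left in a group was then assumed to vary like the others. The cause of these losses was not tested beyond the smaller number of libraries.

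Changes that reversed sign were small and none was called. In C17.2, with TPM as deposited, UBA3 was at 0.12, UBE2M at 0.091, DCUN1D5 at 0.12 and SENP8 at 0.046; with TPM rescaled over protein-coding genes, UBA3 was at 0.048, UBE2M at 0.017 and DCUN1D5 at 0.050; SENP8 was at 0.0069 after quantile normalization and UBE2F at -0.066 with summed entries. In C3.2, under the deposited, protein-coding and quantile scalings, NAE1 was at 0.063, 0.10 and 0.063 and UBA3 at 0.029, 0.067 and 0.012, and UBE2M was at 0.025 under the protein-coding scaling. For the difference between the clones, UBA3 was at 0.092 with TPM as deposited, and UBE2M at -0.0077 with the protein-coding scaling, -0.046 with quantile normalization and -0.0030 with summed entries. Without 1 library, the changes in C17.2 ranged from -0.21 to 0.14 for UBA3, -0.13 to 0.0049 for UBE2M, -0.045 to 0.081 for UBE2F, -0.14 to 0.076 for DCUN1D5 and -0.18 to 0.073 for SENP8. In C3.2 they ranged from -0.022 to 0.017 for NAE1, -0.079 to 0.0068 for UBA3 and -0.19 to 0.031 for UBE2M. The differences ranged from -0.17 to 0.17 for UBA3, -0.098 to 0.12 for UBE2M and -0.24 to 0.0098 for SENP8.

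Ratios of genes kept their direction with 1 added to each TPM. The library titles carry numbers 1 to 4 in each clone, so parental and resistant cells of a clone share none and no paired analysis was possible because of that within a clone. Between the clones the numbers recur, but nothing says that they mark a shared culture or day, and same-numbered libraries did not deviate together (correlations of -0.11 and 0.02 over 15614 genes). With the number as a replicate block, an alternative chosen after seeing the data, the difference between the clones was called for 1 of the 9 genes, CAND1 (0.53, adjusted p = 0.0433), and for 3.84% of all genes, and the calls of UBA7, CALM2 and CBX1 were lost (adjusted p of 0.0828, 0.0540 and 0.0712). The width of the intervals given shows what 2 libraries a group can resolve, and TPM gives no depth to bound counting error, most of all for SENP8.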
